A study of Mus musculus with 4 samples.

Results

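This section describes 10 genes of T cell and natural killer (NK) cell fate, measured as RNA and as open chromatin in the same bone marrow nuclei. They are Notch1 and Notch2, which encode Notch receptors, Tcf7 and Lef1, which encode TCF/LEF factors, and Bcl11b, Gata3, Tox, Rora, Tbx21 and Eomes, which encode other transcription factors of T, NK and innate lymphoid cells. Members were taken by name, 10 of the 32272 gene rows of GRCm38, together with the 224 of 174339 chromatin peaks that lay within 50 kb of the interval the feature table gives for each gene. Nuclei came from C57BL/6 wild type male mice aged 8 weeks that carried no transgene. One group (Lig) had silk ligatures tied around molars for 14 d, which induces periodontitis, and the other (Ctrl) had none. Bone marrow of 5 mice was pooled for each group, and lineage-negative cKit+ cells were sorted as hematopoietic stem and progenitor cells (HSPCs). The sort depleted cells with surface CD3e, CD11b, Gr-1, B220 or TER119. The matrix holds 2 barcode suffixes, here library 1 and library 2, and the labels do not say which suffix is Ctrl and which is Lig. No value was therefore assigned to either group and no effect of ligature was computed.

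Notch receptors are cut on the cell surface when a neighbouring cell presents a Delta or Jagged ligand, and the freed inner part joins the DNA-binding factor RBPJ in the nucleus. In the thymus this signal starts T cell development, turning on Tcf7, which encodes TCF-1, then Gata3 and Bcl11b, while Tbx21 and Eomes encode the T-box factors of NK cells and Rora and Gata3 serve innate lymphoid cells. Bone marrow holds few such cells, and Lef1 is also known from developing B cells.

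After filtering, 5905 nuclei of library 1 and 7714 of library 2 remained, with median depths of 1641 and 1516.5 unique RNA molecules (UMIs) and 19471 and 16284 counts in peaks. The ribosomal RNA locus took 43.0% of UMIs in library 1 and 53.2% in library 2, and 72 barcode sequences occurred in both libraries. Clustering, which left out the 10 genes and their peaks, gave 13 named classes. They resemble hematopoietic stem cells (HSC-like), lymphoid-primed multipotent progenitors (LMPP-like), granulocyte-monocyte progenitors (GMP-like), progenitors of neutrophils (NeuP-like), monocytes (cMoP-like), conventional and plasmacytoid dendritic cells (cDCP-like, pDCP-like), basophils (BaP-like), erythroid cells (EryP-like) and megakaryocytes (MkP-like), and pro-B, mature B and NK or T cells. Together with 2 unnamed clusters, 15 populations held at least 50 nuclei in each library.

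The NK/T-like class held 109 nuclei in library 1 and 88 in library 2, shares of 1.85% (exact 95% binomial interval 1.52 to 2.22) and 1.14% (0.916 to 1.40). Its cluster was led by Gm2682, Il2rb, Skap1, Ms4a4b, Cd28 and Il18r1, and 17 of 20 genes on the NK/T marker list were higher there than in the other nuclei of both libraries. Levels are given as CPM, the UMIs of a gene per 1000000 UMIs of the same nuclei. The summed level of that list was 3174 CPM against 74.4 in library 1 and 1511 against 57.5 in library 2. As the class was named from the same list, this count and these sums follow from the naming. The T cell receptor partner genes had few UMIs. In library 1 there were 4 of Cd3e (28.3 CPM against 0.197 elsewhere), 3 of Cd3d (21.2 against 0.197), 6 of Cd3g (42.4 against 0.0985) and 17 of Cd247 (120 against 3.94). In library 2 there were 2 of Cd247 (18.1 CPM against 2.09) and 0 of the other 3, which allows up to 27.1 CPM. Kit, the gene of the sorted receptor, stood at 148 and 90.5 CPM in these nuclei beside 138 and 73.2 CPM elsewhere. The summed pro-B marker list was lower than in the other nuclei (601 against 1471 CPM and 72.4 against 252 CPM), but those include the pro-B-like class. Ebf1 alone held 51 UMIs (361 CPM) in NK/T-like nuclei of library 1 and 6 UMIs (54.3 CPM) in library 2. All 5 stromal markers were at 0. They sum to 1.67 and 2.90 CPM elsewhere, and a count of 0 allows 21.2 and 27.1 CPM, so these zeros are below what the depth can show. Some lists of other classes had higher sums in NK/T-like nuclei of both libraries, LMPP at 877 against 579 and 398 against 353 CPM, cMoP at 382 against 312 and 308 against 214, cDCP at 91.9 against 49.8 and 45.2 against 26.2 and BaP at 84.8 against 54.1 and 45.2 against 39.7. Few of their single markers were higher in both libraries, 3 of 7 for LMPP, 2 of 8 for cMoP, 1 of 10 for cDCP and 1 of 8 for BaP. The cDCP marker was Itgax, at 49.5 against 1.87 and 36.2 against 0.563 CPM. The GMP list summed to 983 CPM in NK/T-like nuclei of library 1 and to 1746 CPM in library 2, there above the NK/T list itself. The NeuP list summed to 311 and 507 CPM. Both were lower than in the other nuclei (1528 and 2404 CPM for GMP, 505 and 882 CPM for NeuP). The part of these lists in the results was not tested.

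Several members had a large part of their RNA in this small class. Of the 10 genes, 7 had their highest level there in both libraries (Tcf7, Bcl11b, Gata3, Tox, Rora, Tbx21 and Eomes), while Lef1 was highest in pro-B-like, Notch1 in LMPP-like and Notch2 in cMoP-like or cDCP-like nuclei. The share of all genes with their highest level in this class was not computed. As 1 UMI is worth 7.07 and 9.05 CPM there, a sparse gene can peak in this class on few UMIs. NK/T-like nuclei supplied 66.7% of all Tcf7 UMIs, 69.2% of those of Bcl11b and 76.9% of those of Eomes. The share was 51.9% for Tbx21, 35.8% for Gata3, 24.7% for Tox and 19.7% for Rora, and it was 2.35% for Lef1, 1.07% for Notch1 and 0.199% for Notch2. Intervals beside levels and ratios are exact 95% Poisson intervals, which cover counting error only. Since a sum over nuclei cannot tell fewer expressing nuclei from less RNA per nucleus, shares of nuclei with a UMI are given further on.

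**Figure D1:**
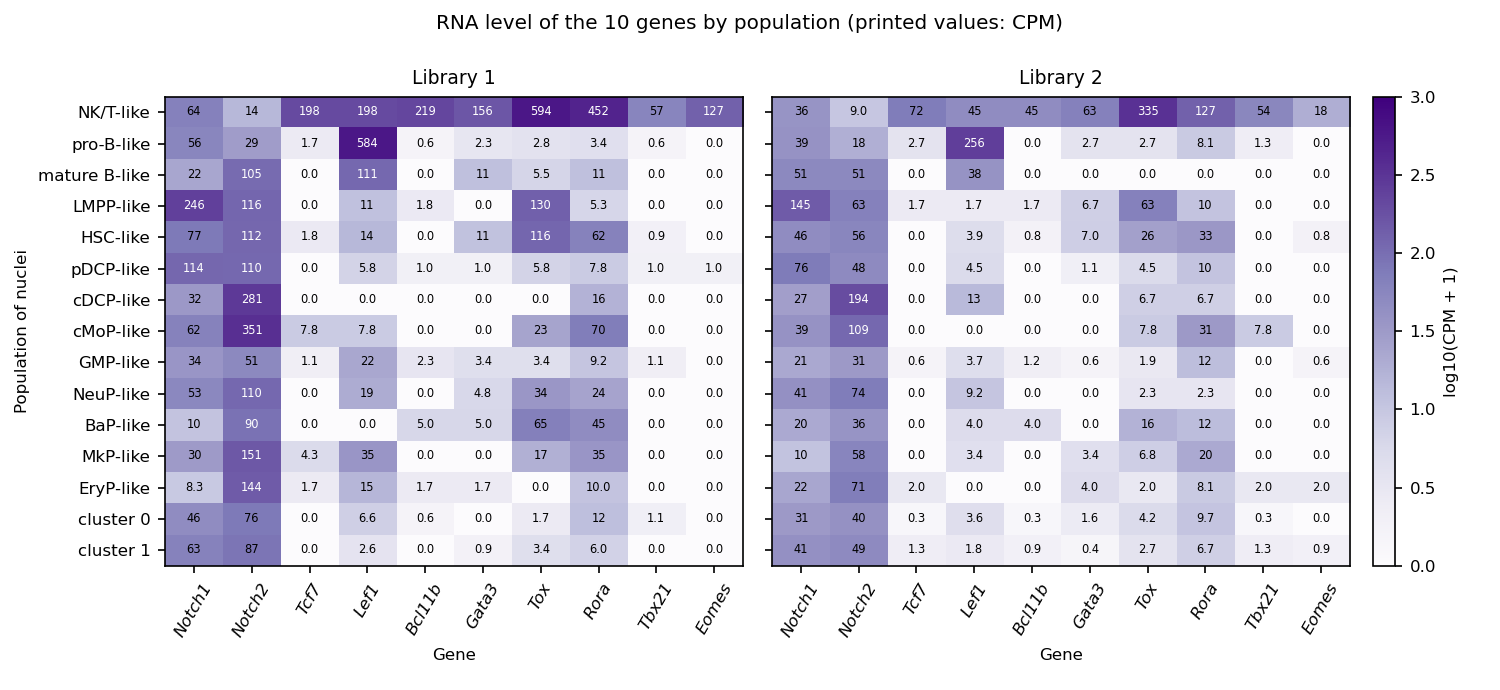
RNA level of the 10 genes (columns) in 15 populations (rows) of library 1 and library 2, with the level in CPM printed in each cell and shaded on a log scale. The darkest cells of Tox lie in the NK/T-like row (594 and 335 CPM), and those of Lef1 in the pro-B-like row (584 and 256 CPM).

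Tcf7 (chr11:52252371-52283014, minus strand), the TCF/LEF factor that T cell progenitors switch on after Notch, stood at 198 CPM (28 UMIs, 95% interval 132 to 286) in NK/T-like nuclei of library 1 and at 72.4 CPM (8 UMIs, 31.2 to 143) in library 2. All other nuclei together held 9 UMIs in each library, 0.886 and 0.724 CPM. The ratio was 223 (102 to 538) and 99.9 (33.5 to 292), and no other population exceeded 7.80 CPM in library 1 or 2.70 CPM in library 2. Tcf7 was at 0 UMIs in both libraries in 5 of the 15 populations. Its gene body overlaps A630014C17Rik on the opposite strand and Gm26551 on the same strand, so part of its UMIs could have been counted for another gene or the reverse.

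Bcl11b (chr12:107910403-108003602, minus strand), which fixes the T cell fate, showed the same concentration, with 219 CPM (31 UMIs, 149 to 311) in library 1 and 45.2 CPM (5 UMIs, 14.7 to 106) in library 2. The rest of each library held 8 UMIs, a ratio of 278 (125 to 700) and 70.3 (18.1 to 244). In library 2 the interval of NK/T-like nuclei overlapped that of the next population, BaP-like, so the order rests on few molecules there. Gata3 (chr2:9857078-9890034, minus strand), needed by T cells and by type 2 innate lymphoid cells, reached 156 CPM (22 UMIs, 97.5 to 235) and 63.3 CPM (7 UMIs, 25.5 to 130). Its ratio was 60.7 (32.8 to 111) and 30.3 (11.1 to 71.6). HSC-like nuclei held 10.5 (5.45 to 18.4) and 6.96 CPM (3.18 to 13.2) of Gata3, 2.68 (1.27 to 5.28) and 3.26 (1.33 to 7.27) times the level of all other nuclei. These intervals overlap those of EryP-like nuclei, which should lack Gata3 (1.66 CPM, 0.0420 to 9.25, and 4.03 CPM, 0.488 to 14.6). After thinning each nucleus to 500 UMIs, 3 and 2 HSC-like nuclei (0.464% and 0.234%) had a UMI, beside 0 and 1 EryP-like nuclei (0.307% in library 2). The HSC-like level was thus not told apart from that of EryP-like nuclei, which held only 1 and 2 UMIs. It was above that of unnamed cluster 1 (0.859 CPM, 0.0217 to 4.78, and 0.446 CPM, 0.0113 to 2.49), with intervals apart in both libraries. For unnamed cluster 0 they were apart in library 1 only.

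Tox (chr4:6686353-6991557, minus strand), a chromatin-binding factor of T and innate lymphoid development, was measured with the most molecules of the 8 non-Notch members in this class. It stood at 594 CPM (84 UMIs, 474 to 735) in library 1 and 335 CPM (37 UMIs, 236 to 461) in library 2, with ratios of 23.6 (18.3 to 30.4) and 36.5 (24.5 to 53.3). Unlike Tcf7, it was also present in early progenitors. LMPP-like nuclei held 130 and 63.4 CPM, 4.76 (3.62 to 6.18) and 6.70 (4.51 to 9.75) times the level of the nuclei outside that class. HSC-like nuclei held 116 and 26.3 CPM, with ratios of 5.13 (4.09 to 6.41) and 2.53 (1.67 to 3.73). In pro-B-like nuclei Tox was scarce, at 2.83 and 2.70 CPM.

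Rora (chr9:68653786-69388246, plus strand), a nuclear receptor needed for type 2 innate lymphoid cells, was at 452 CPM (64 UMIs, 348 to 578) in library 1 and 127 CPM (14 UMIs, 69.2 to 212) in library 2. The ratios were 27.2 (20.1 to 36.4) and 10.6 (5.67 to 18.4), and with at least 500 genes per nucleus the log2 fold in library 2 went from 3.31 to 1.13. HSC-like nuclei held 62.4 and 33.3 CPM, 3.53 (2.63 to 4.69) and 3.14 (2.16 to 4.49) times the rest, and cMoP-like nuclei 70.2 (9 UMIs) and 31.2 CPM (4 UMIs), with intervals that overlapped those of HSC-like nuclei in both libraries. Rora had a UMI in every population of library 1, with a lowest level of 3.40 CPM.

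The T-box genes were measured with few molecules. Tbx21 (chr11:97098071-97115331, minus strand), which encodes T-bet, had 8 UMIs in NK/T-like nuclei of library 1 (56.6 CPM, 24.4 to 111) and 6 in library 2 (54.3 CPM, 19.9 to 118), against 6 and 7 UMIs in all other nuclei. The ratio was 95.7 (29.1 to 335) and 96.4 (26.8 to 335), nearly the same in both libraries. Eomes (chr9:118478212-118486132, plus strand), the partner T-box factor of NK cells, had 18 UMIs in library 1 (127 CPM, 75.4 to 201) with a single UMI elsewhere, and 2 UMIs in library 2 (18.1 CPM, 2.19 to 65.4) with 5 elsewhere. Its ratio in library 2 was 45.0 (4.28 to 275), and the intervals of NK/T-like and the next population overlapped there for Tbx21 and Eomes alike.

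Lef1 (chr3:131110471-131224356, plus strand) parted from its relative Tcf7. In NK/T-like nuclei it was at 198 CPM (28 UMIs, 132 to 286) in library 1 and 45.2 CPM (5 UMIs, 14.7 to 106) in library 2, but pro-B-like nuclei held more, 584 CPM (1031 UMIs, 549 to 621) and 256 CPM (190 UMIs, 221 to 296). Pro-B-like nuclei exceeded all other nuclei 36.9-fold (30.8 to 44.5) and 63.0-fold (45.7 to 88.4). Mature B-like nuclei held 111 CPM (20 UMIs, 67.6 to 171) and 38.0 CPM (3 UMIs, 7.84 to 111), with intervals that overlapped those of NK/T-like nuclei, and LMPP-like nuclei held 10.7 and 1.67 CPM. Tcf7 in pro-B-like nuclei amounted to 3 UMIs (1.70 CPM) and 2 UMIs (2.70 CPM).

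The Notch receptors did not follow the fate factors. Notch1 (chr2:26457903-26516663, minus strand) in NK/T-like nuclei was at 63.6 CPM (9 UMIs, 29.1 to 121) and 36.2 CPM (4 UMIs, 9.86 to 92.6), ratios of 0.96 (0.435 to 1.82) and 0.86 (0.234 to 2.22) to the other nuclei, so a difference was not detectable at this depth. LMPP-like nuclei, the progenitors with lymphoid potential, held the most, 246 CPM (138 UMIs, 206 to 290) in library 1 and 145 CPM (87 UMIs, 116 to 179) in library 2, or 4.37 (3.60 to 5.28) and 3.95 (3.10 to 4.98) times the rest. The next population, pDCP-like, held 114 (93.9 to 136) and 75.8 CPM (58.9 to 96.1), with intervals apart from those of LMPP-like nuclei in both libraries. EryP-like nuclei had the lowest Notch1 level in library 1, 8.30 CPM.

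Notch2 (chr3:98013527-98150361, plus strand), the receptor with known roles in dendritic and marginal zone B cells, was lowest in NK/T-like nuclei of both libraries, with 2 UMIs (14.1 CPM) and 1 UMI (9.05 CPM). The ratio to the other nuclei was 0.16 (0.0191 to 0.573) and 0.19 (0.00476 to 1.05), and the second interval includes 1. Its highest levels were in cMoP-like nuclei, 351 CPM (256 to 470) and 109 CPM (59.6 to 183), and in cDCP-like nuclei, 281 CPM (196 to 391) and 194 CPM (130 to 278). These 2 classes could not be ordered, since their intervals overlapped in both libraries. Notch2 also had a UMI in 21.8% and 9.82% of EryP-like nuclei, where Notch1 had one in 1.47% and 3.37%.

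**Figure D2:**
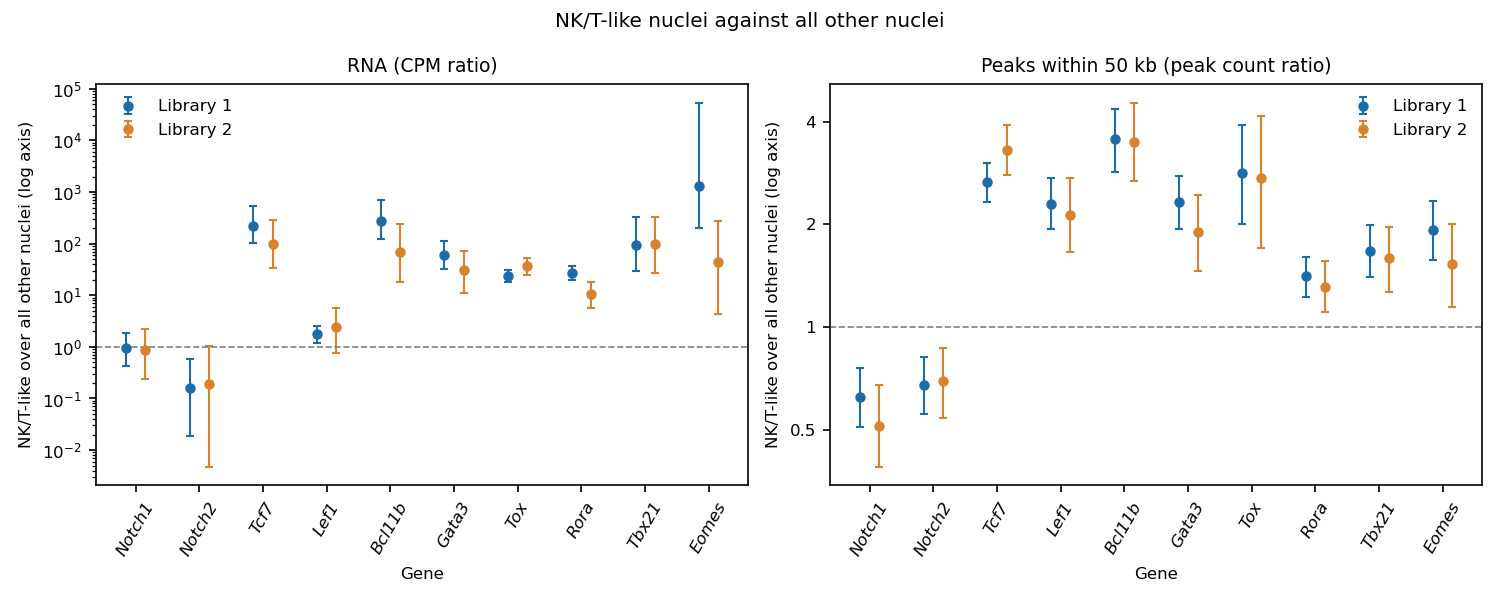
Ratio of NK/T-like to all other nuclei for each gene, for RNA (left) and for peaks within 50 kb (right), on log axes, with points for library 1 (blue) and library 2 (orange) and bars for 95% counting intervals. RNA ratios run from 0.16 for Notch2 to 1292 for Eomes in library 1, while locus ratios stay between 0.51 and 3.56.

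A gene counted as higher or lower in a class when its level there differed at least 2-fold from that of all other nuclei in both libraries, with 1 CPM added to both sides, among genes that reached 20 UMIs in each library. Only 6 of the 10 members passed this minimum (Notch1, Notch2, Lef1, Gata3, Tox and Rora). In NK/T-like nuclei 3 of the 6 were higher (Gata3, Tox and Rora), beside 4.99% of all 10614 genes, and 1 was lower (Notch2), beside 15.4%. Without the minimum 7 of 10 were higher, beside 2.91% of 24143 genes, the added ones being Tcf7, Bcl11b, Tbx21 and Eomes, and 1 was lower, beside 9.93%. Clusters were built on the other genes of the same nuclei, so these counts describe the class and are not tests.

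The same count was made for the progenitor classes. HSC-like nuclei were higher in Gata3, Tox and Rora (3 of 6, beside 2.48%) and lower in Lef1 (1 of 6, beside 1.6%). Of these, the Gata3 RNA level was not told apart from that of EryP-like nuclei, as given above. LMPP-like nuclei were higher in Notch1 and Tox (2 of 6, beside 2.64%) and lower in Lef1 (1 of 6, beside 3.15%). Pro-B-like nuclei were higher in Lef1 (1 of 6, beside 4.08%) and lower in Notch2 and Tox (2 of 6, beside 4.79%). The lower calls of Lef1 are set against nuclei that include the pro-B-like class, and the Lef1 level of HSC-like nuclei, 14.1 and 3.87 CPM, was the median of the 15 populations. pDCP-like nuclei were higher in 0 of 6 (beside 0.49%) and lower in Lef1 and Tox (2 of 6, beside 2.68%). Their Tox level, 5.82 and 4.46 CPM, was also the median of the 15 populations, and the nuclei it is set against include the NK/T-like class. cMoP-like nuclei were higher in Notch2 and Rora (2 of 6, beside 3.31%) and lower in Lef1 and Gata3 (2 of 6, beside 22%), and cDCP-like nuclei were higher in Notch2 (1 of 6, beside 3.62%) and lower in Gata3 (1 of 6, beside 18%). Gata3 had 0 UMIs in both of these classes, and a count of 0 allows more than its level elsewhere, so that its lower calls there are not detectable differences, and Lef1 in cMoP-like nuclei rested on 1 and 0 UMIs. The higher call of Rora in cMoP-like nuclei rested on 9 UMIs in 3 nuclei and 4 UMIs in 4 nuclei, and its ratio in library 2, 2.45 (0.659 to 6.39), had an interval that includes 1.

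At the level of single nuclei the members were sparse. Any of the 8 members outside the Notch receptors had a UMI in 114 of 197 NK/T-like nuclei (57.9%, 50.6 to 64.9), and any of Tcf7, Bcl11b, Gata3, Tbx21 and Eomes, a set formed after their levels were seen, in 76 (38.6%, 31.7 to 45.8). For those 5 genes the share was 49.5% in library 1 and 25% in library 2, both outside the pooled interval, which thus describes neither library. In the other populations it ran from 0 of 177 cDCP-like nuclei, which allows up to 1.69% (limits of a count of 0 are taken as 3 counts throughout), to 1.46% of HSC-like nuclei. EryP-like nuclei, which should lack these factors, had such a UMI in 1.20%. NK/T-like nuclei were not deeper, with a median of 1101 UMIs beside 1454 in EryP-like nuclei. Pro-B-like nuclei reached 45.7% for the 8 genes and 0.886% for the 5. Of the 3 genes that set these apart, Lef1 had a UMI in 558 and 143 pro-B-like nuclei, Tox in 5 and 2 and Rora in 6 and 6.

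**Figure D3:**
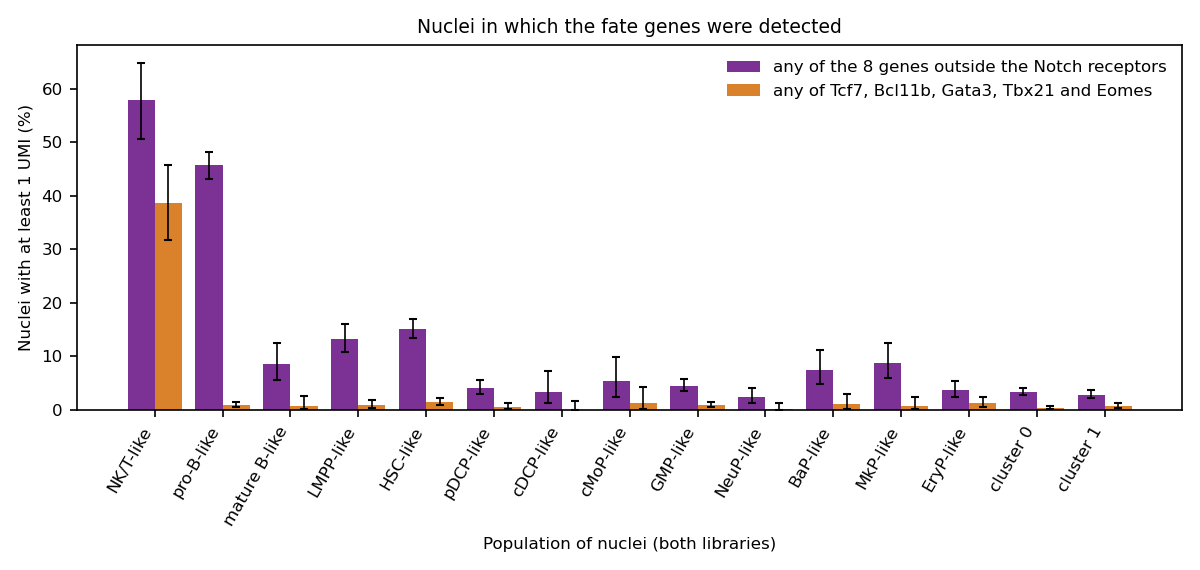
Share of nuclei (y axis, percent, both libraries) with at least 1 UMI of any of the 8 genes outside the Notch receptors (purple) or of any of Tcf7, Bcl11b, Gata3, Tbx21 and Eomes (orange), by population (x axis), with exact 95% binomial intervals, or for a count of 0 a bar up to 3 nuclei of the total. The orange bar stands at 38.6% in NK/T-like nuclei and at 1.46% or less in the other 14 populations, and the purple bar is also tall in pro-B-like nuclei (45.7%). Intervals pool the libraries, and the orange NK/T-like shares of library 1 (49.5%) and library 2 (25%) lie outside the drawn one.

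By gene, the share of NK/T-like nuclei with a UMI was 34.9% and 25% for Tox in library 1 and library 2, 20.2% and 6.82% for Rora, and 18.3% and 9.09% for Tcf7. For Gata3 it was 11.0% and 4.55%, for Tbx21 6.42% and 6.82%, and for Eomes 13.8% and 2.27%. Shares in EryP-like nuclei were 0.307% or less for Tcf7, Tox, Tbx21 and Eomes in both libraries, 0.295% and 0.613% for Gata3, and 1.77% and 1.23% for Rora. Thinning each nucleus to 500 UMIs left 108 and 88 NK/T-like nuclei, of which Tox had a UMI in 23 and 9, Rora in 14 and 3, Lef1 in 14 and 2, Bcl11b in 10 and 2, Tcf7 in 6 and 5, Gata3 in 6 and 1, Eomes in 5 and 1 and Tbx21 in 3 and 1. Most of these shares thus rested on 1 to 3 nuclei in library 2. Thinning left LMPP-like nuclei with Notch1 in 12.7% and 6.88%.

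Members were also counted together in single NK/T-like nuclei. Of the 197 nuclei, 76 had a UMI of 0 members, 63 of 1, 26 of 2, 22 of 3 and 7 of 4, and the highest count was 6 members in 1 nucleus. Of 16 nuclei with Gata3, 13 also had Tox (81.2%, 54.4 to 96.0) and 9 had Rora (56.2%, 29.9 to 80.2), and of 28 with Rora, 18 had Tox (64.3%, 44.1 to 81.4) and 11 had Tcf7. Over all 197 nuclei Tox had a UMI in 30.5%, Rora in 14.2%, Eomes in 8.63% and Tbx21 in 6.60%. Tox was also found in 53.6% of nuclei with Tcf7, 50% with Bcl11b and 45.8% with Lef1, but in 25% with Notch1, 23.5% with Eomes and 23.1% with Tbx21. Of the nuclei with Gata3, 12 were of library 1 and 4 of library 2. Neither depth nor library was matched, so shares above those of all nuclei do not show that 2 genes go together. Rora was found with Tbx21 or with Eomes in 0 of its 28 nuclei, which allows up to 10.7% for each, above the shares of Eomes and Tbx21 over all nuclei. Gata3 occurred with Tbx21 in 0 of 16 nuclei, which allows up to 18.8%, and with Eomes in 1. Tbx21 and Eomes shared 0 of 13 and 17 nuclei, which allows up to 23.1% of the former. Tcf7 was found with Gata3 in 5 of its 28 nuclei, with Eomes in 4 and with Tbx21 in 2. With a UMI in so few nuclei, these counts cannot tell an absent gene from one not sampled, and the counts of 0 do not show that a pair of genes avoids the same nuclei.

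Chromatin at these loci followed the RNA in direction for most members, with smaller ratios. Peak counts within 50 kb, per 1000000 peak counts of the same nuclei (peak CPM), were highest in NK/T-like nuclei in both libraries for 6 genes, namely Tcf7, Bcl11b, Gata3, Tox, Tbx21 and Eomes. The share of all gene loci that are most open in this class was not computed. The interval of the most open class stood apart from that of the next in both libraries for Tcf7 and Bcl11b only. At Bcl11b the ratios were 3.56 (2.86 to 4.35) and 3.49 (2.67 to 4.54), from 114 and 116 peak CPM against 32.1 and 33.3 elsewhere. Tcf7, at 2.66 (2.32 to 3.03) and 3.30 (2.78 to 3.90), and Tox, at 2.83 (2.0 to 3.90) and 2.73 (1.70 to 4.16), could not be ordered against each other or against Bcl11b, since the intervals of the 3 loci overlapped. With at least 500 genes per nucleus, which left 17 NK/T-like nuclei in library 2, the log2 ratio of the Tox locus there fell from 1.45 to 0.15 and that of the Lef1 locus from 1.09 to 0.11. The Tcf7 locus there went from 1.72 to 1.42, the Gata3 locus from 0.93 to 0.49, and the Bcl11b locus in library 1 from 1.83 to 1.28. Gata3, Tbx21 and Eomes ranged from 1.53 to 2.33.

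**Figure D4:**
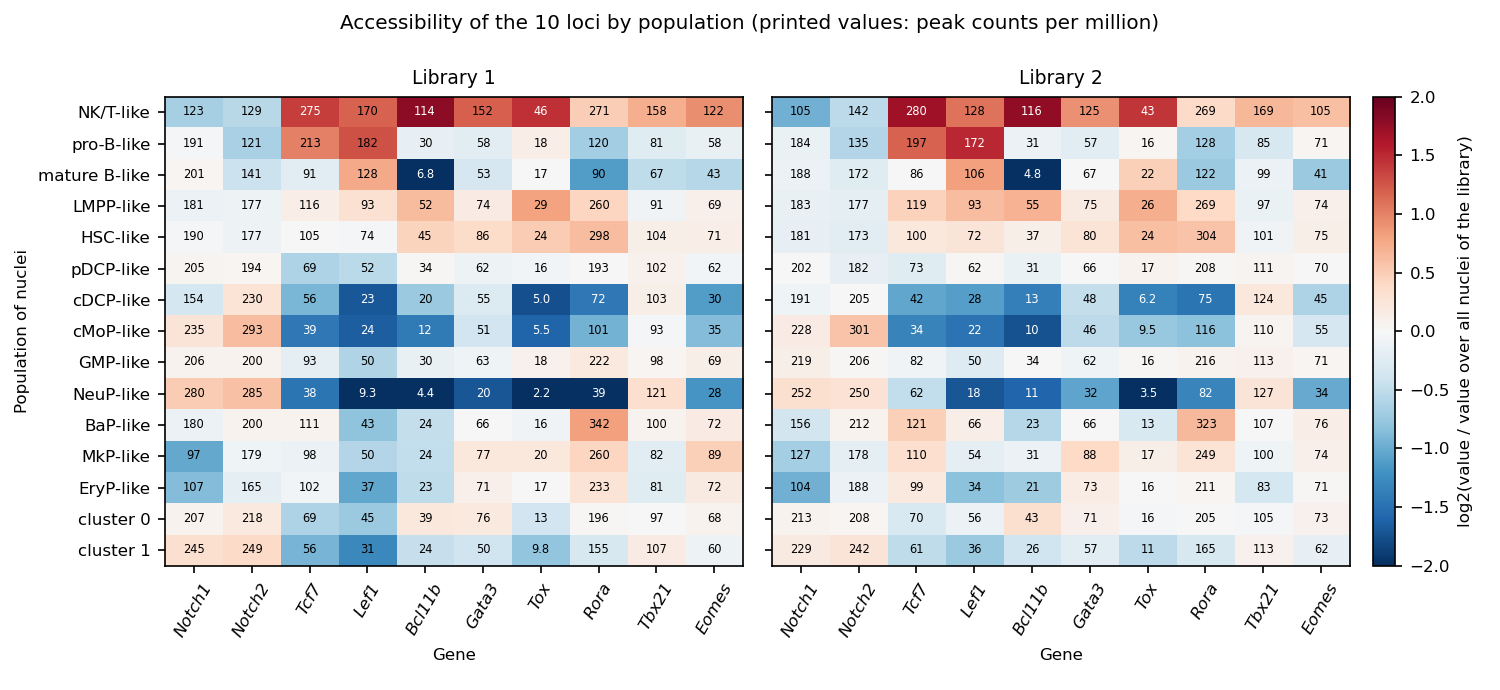
Accessibility of the 10 loci (columns) in 15 populations (rows) of each library, with peak CPM printed and coloured by the log2 of the value over that of all nuclei of the library (red more open, blue less open). The Bcl11b column is reddest in the NK/T-like row (114 and 116), and the Lef1 and Tcf7 columns are red in both the NK/T-like and the pro-B-like row.

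The remaining 4 loci differed. Lef1 was most open in pro-B-like nuclei (182 and 172 peak CPM) and next in NK/T-like nuclei (170 and 128), with overlapping intervals. Tcf7 was open in pro-B-like nuclei as well, at 213 and 197 peak CPM beside 275 and 280 in NK/T-like nuclei, although its RNA there was only 3 and 2 UMIs. Rora was most open in BaP-like nuclei (342 and 323) and at 271 and 269 in NK/T-like nuclei, a ratio of 1.41 (1.23 to 1.60) and 1.31 (1.11 to 1.56), where its window covers far more sequence because its start sites span 636 kb. Notch1 and Notch2 were less open in NK/T-like nuclei than elsewhere, with ratios of 0.62 (0.510 to 0.757) and 0.51 (0.390 to 0.677) for Notch1 and of 0.68 (0.556 to 0.818) and 0.70 (0.540 to 0.870) for Notch2. In log2 these were −0.68 and −0.96 for Notch1 and −0.56 and −0.52 for Notch2. The median single peak of all those tested stood at −0.47 and −0.45 in this class, so the Notch2 ratios lay near the common level. Notch1 was most open in NeuP-like nuclei (280 and 252) and Notch2 in cMoP-like nuclei (293 and 301), so that the Notch1 locus was not most open where its RNA was highest.

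Single peaks showed where the loci opened. Of the 224 peaks, 150 held at least 200 counts in each library, and 24 of those (16%) were at least 2-fold more open in NK/T-like nuclei in both libraries, beside 3.06% of all 103952 such peaks. Another 19 were less open, beside 20.5%, of which 6 lay at Notch1, 8 at Notch2 and 5 at Rora. Bcl11b had 5 of 8 peaks more open, Tcf7 4 of 16, Gata3 4 of 11, Lef1 3 of 13, Eomes 2 of 7, Tbx21 2 of 13, Rora 2 of 35, and Notch1 and Notch2 1 each of 20 and 25. Both Tox peaks fell short of 2-fold in 1 library. The 24 became 15 with peaks within 10 kb, 13 with at least 500 counts per peak and 6 when nuclei needed 500 genes, which left 51 and 17 NK/T-like nuclei. The shares of all peaks under these settings are not given. These counts therefore cannot show whether the difference from all peaks holds under each setting. Folds of peaks are given with 1 peak CPM added to both sides. Of the 224 peaks, 149 had the member as the nearest coding gene start, and the others lie closer to another gene.

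Of the peaks called more open in NK/T-like nuclei, 6 outside exons are printed to show their sequence. These are not the 6 with the highest folds, and an intronic Tcf7 peak without any of the matches below is left out. Among the others left out are a further intronic peak of Lef1 and of Rora, without a match, and another upstream Bcl11b peak with an RBPJ match. Peaks with a match make up a larger part of the printed peaks than of all those called. The printed stretches are the central 300 bases of each peak, on the plus strand of GRCm38. They come from the Tcf7 peak with the highest lower fold and a Tcf7 peak shared with pro-B-like and LMPP-like nuclei. The others are an intronic Lef1 peak, the Bcl11b promoter peak, a Bcl11b peak further upstream and an intronic Rora peak. Capitals mark matches on either strand, for TCF/LEF to CTTTGAT or its variant CTTTGAA, for RBPJ to GTGGGAA and for GATA factors to AGATAA.
Tcf7, 31.2 kb upstream, chr11:52314336-52314635: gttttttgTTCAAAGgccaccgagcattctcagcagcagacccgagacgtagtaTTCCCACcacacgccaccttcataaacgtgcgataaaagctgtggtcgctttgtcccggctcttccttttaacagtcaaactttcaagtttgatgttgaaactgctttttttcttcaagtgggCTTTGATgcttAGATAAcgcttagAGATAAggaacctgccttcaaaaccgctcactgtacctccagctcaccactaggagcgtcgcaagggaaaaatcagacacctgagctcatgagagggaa
Tcf7, 35.3 kb upstream, chr11:52318511-52318810: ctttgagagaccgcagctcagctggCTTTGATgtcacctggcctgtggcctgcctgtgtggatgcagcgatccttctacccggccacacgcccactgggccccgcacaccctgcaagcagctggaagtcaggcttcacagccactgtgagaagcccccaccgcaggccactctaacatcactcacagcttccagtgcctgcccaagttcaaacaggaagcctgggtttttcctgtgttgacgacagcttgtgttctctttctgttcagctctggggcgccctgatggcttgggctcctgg
Lef1, 47.2 kb downstream of the start, intron, chr3:131157501-131157800: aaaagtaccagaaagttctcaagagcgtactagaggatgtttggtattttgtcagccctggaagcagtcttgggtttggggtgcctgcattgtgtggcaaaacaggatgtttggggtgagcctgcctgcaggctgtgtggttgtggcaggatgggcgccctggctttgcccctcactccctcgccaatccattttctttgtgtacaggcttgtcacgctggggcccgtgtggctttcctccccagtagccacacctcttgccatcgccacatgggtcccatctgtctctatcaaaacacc
Bcl11b, 0.6 kb upstream, chr12:108004005-108004304: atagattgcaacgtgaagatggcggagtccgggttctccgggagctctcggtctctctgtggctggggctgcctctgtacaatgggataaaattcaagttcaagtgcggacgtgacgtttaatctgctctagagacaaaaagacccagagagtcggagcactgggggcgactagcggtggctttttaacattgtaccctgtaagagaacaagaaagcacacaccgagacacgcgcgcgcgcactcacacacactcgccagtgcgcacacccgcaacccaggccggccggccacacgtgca
Bcl11b, 38.2 kb upstream, chr12:108041690-108041989: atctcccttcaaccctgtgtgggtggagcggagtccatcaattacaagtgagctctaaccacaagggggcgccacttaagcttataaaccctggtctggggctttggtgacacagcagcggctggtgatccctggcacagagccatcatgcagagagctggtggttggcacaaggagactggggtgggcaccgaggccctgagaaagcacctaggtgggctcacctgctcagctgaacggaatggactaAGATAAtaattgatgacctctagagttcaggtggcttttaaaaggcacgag
Rora, 380.8 kb downstream of the first start, intron, chr9:69034437-69034736: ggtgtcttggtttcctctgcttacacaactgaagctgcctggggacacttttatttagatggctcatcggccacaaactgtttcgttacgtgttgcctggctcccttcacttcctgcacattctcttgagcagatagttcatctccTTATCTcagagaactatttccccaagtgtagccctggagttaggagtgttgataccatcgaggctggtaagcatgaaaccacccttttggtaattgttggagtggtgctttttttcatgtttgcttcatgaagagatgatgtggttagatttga

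The Tcf7 window 31.2 kb upstream held 2 TCF/LEF, 1 RBPJ and 2 GATA matches, and the one 35.3 kb upstream 1 TCF/LEF match. The upstream Bcl11b and the Rora window held 1 GATA match each, and the Lef1 and Bcl11b promoter windows held none of these letters. Over all 24 peaks, 3 had a TCF/LEF, 2 an RBPJ and 3 a GATA match, and 0 had a T-box (AGGTGTGA) or ROR (TAGGTCA) match. Among the 224 member peaks the shares were 13.8% for TCF/LEF, 8.93% for RBPJ and 12.1% for GATA, beside 9.61%, 6.75% and 13.3% of 174282 peaks with sequence, and T-box matches were in 1.34% beside 1.17%. A match is a description of letters and does not show that a factor was bound.

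At Tcf7 the peak 31.2 kb upstream had 45.7 peak CPM in NK/T-like nuclei against 5.29 elsewhere in library 1 and 34.2 against 4.10 in library 2, folds of 7.42 and 6.90. An intronic peak 17.4 kb into the gene reached 46.8 against 6.15 and 38.1 against 4.93, folds of 6.69 and 6.59. In pro-B-like nuclei these peaks were near the common level, at 6.30 and 5.78 for the first and 8.01 and 7.88 for the second. A peak 16.4 kb upstream fell under the minimum of 200 counts and is named after its values were seen, with 66 of 172 and 34 of 163 counts in NK/T-like nuclei. The start site peak was 2.44-fold and 2.08-fold more open in NK/T-like nuclei.

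In pro-B-like nuclei 6 Tcf7 peaks were more open at 2-fold or more in both libraries. The foremost lay 14.8 kb into the gene, with 46.6 and 43.6 peak CPM and folds of 9.40 and 9.41, where NK/T-like folds were 1.38 and 5.42. Others lay 10.0 kb into the gene (3.92 and 4.50) and 26.3 kb upstream (5.55 and 4.71). The peak 35.3 kb upstream was common ground, with NK/T-like folds of 2.05 and 3.32, pro-B-like folds of 2.90 and 2.76 and LMPP-like folds of 2.15 and 2.56. Over all 10 loci pro-B-like nuclei had 12 of the 150 peaks more open, 6 of 16 at Tcf7 and 6 of 13 at Lef1, beside 5.21% of all peaks.

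At Lef1, too, NK/T-like and pro-B-like nuclei differed by peak. The intronic peak 47.2 kb into the gene stood at 40.9 and 27.4 peak CPM in NK/T-like nuclei (folds 6.52 and 5.05), at 24.4 and 25.4 in LMPP-like nuclei (4.22 and 5.44), at 13.2 and 11.9 in HSC-like nuclei (2.35 and 2.57) and at 7.32 and 7.88 in pro-B-like nuclei. The peak 3.2 kb upstream did the reverse, with 45.6 and 42.7 in pro-B-like nuclei (folds 9.76 and 9.91) and 20.8 and 2.93 in NK/T-like nuclei. A peak 8.1 kb upstream was 8.82-fold and 6.16-fold more open in pro-B-like nuclei and 0.80-fold and 1.0-fold in NK/T-like nuclei. Peaks 1.8 and 7.5 kb into the gene were more open in both classes.

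**Figure D5:**
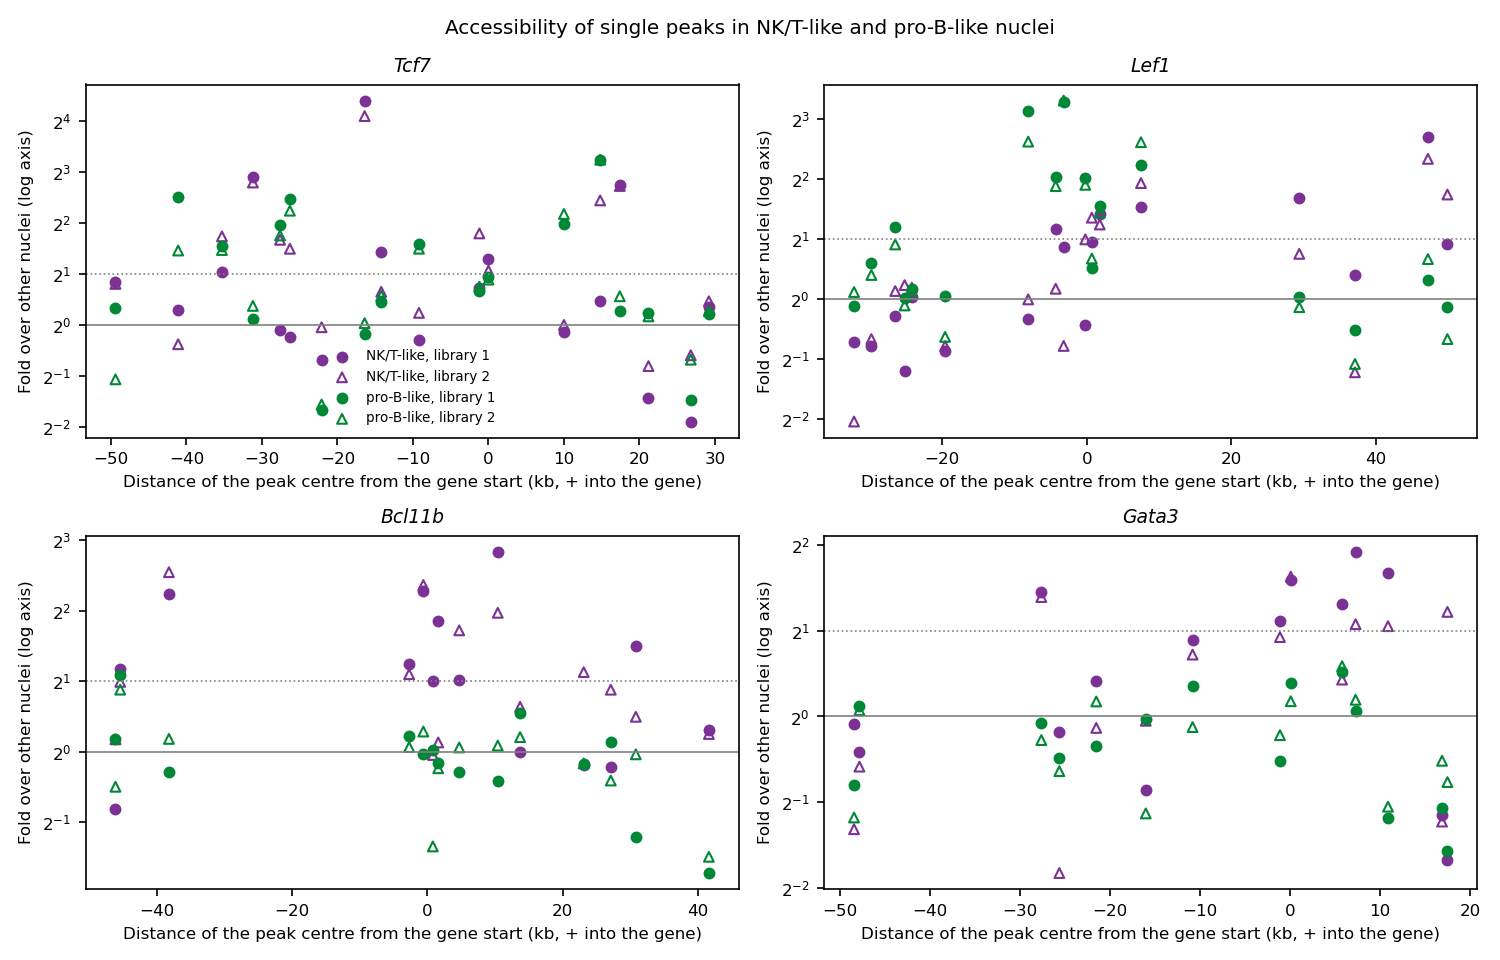
Fold of each peak over all other nuclei (y axis, log scale) against the distance of its centre from the gene start (x axis, kb) at Tcf7, Lef1, Bcl11b and Gata3, for NK/T-like (purple) and pro-B-like nuclei (green) in library 1 (filled circles) and library 2 (open triangles), with a dotted line at 2-fold. Purple points stand far above green ones 31.2 kb upstream of Tcf7 (7.42 and 6.90) and green ones far above purple ones 3.2 kb upstream of Lef1 (9.76 and 9.91), while at Bcl11b and Gata3 only purple points exceed 2-fold in both libraries.

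Bcl11b opened at its promoter and at distant peaks together. The peak 0.6 kb upstream of the start stood at 25.5 against 4.44 peak CPM in library 1 and 29.3 against 4.88 in library 2, folds of 4.87 and 5.15. The peak 38.2 kb upstream was at 21.9 against 3.86 and 26.4 against 3.68 (4.72 and 5.85), and an intronic peak 10.4 kb into the gene at folds of 7.13 and 3.92. In LMPP-like nuclei the promoter peak reached 6.54 and 10.0 peak CPM, folds of 1.33 and 1.89, and none of the 8 Bcl11b peaks with enough counts passed 2-fold in both libraries there or in pro-B-like or HSC-like nuclei.

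Gata3 had its start site peak at 22.5 against 6.81 and 23.4 against 6.90 peak CPM (folds 3.01 and 3.09), and intronic peaks 7.3 and 10.9 kb into the gene at 3.78 and 2.11 and at 3.19 and 2.07. Of these 3, the nearest coding start is that of 4930412O13Rik, which overlaps Gata3 on the opposite strand. At Rora the intronic peak printed above had the highest lower fold of all 24, with 51.0 against 5.99 and 51.8 against 6.02 peak CPM, folds of 7.44 and 7.52. In pro-B-like nuclei it was almost closed, at 1.51 and 0.66. HSC-like nuclei had 6 Rora peaks more open (7 of the 150 member peaks with the Lef1 peak, beside 1.48% of all peaks) and LMPP-like nuclei 3 (6 of the 150 member peaks in all, beside 1.83%). The foremost of these, 288.9 kb from the first start, was at folds of 4.23 and 3.56 in HSC-like, 3.21 and 3.37 in LMPP-like but 0.59 and 0.23 in NK/T-like nuclei. The intronic peak printed above was at folds of 1.49 and 1.74 in HSC-like nuclei, and none of their 6 Rora peaks was among the 2 called more open in NK/T-like nuclei.

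At Tbx21 a peak 8.2 kb upstream was 4.6-fold and 2.56-fold more open in NK/T-like nuclei, and at Eomes peaks 0.9 and 8.4 kb from the start were at 2.73 and 2.01 and at 2.71 and 3.10. Tox had a start site peak at 39.7 against 12.6 and 24.4 against 12.0 peak CPM, folds of 3.0 and 1.96. At Notch1 a peak 9.7 kb upstream was nearly closed in NK/T-like nuclei, with 4.74 against 34.8 and 1.95 against 29.7 peak CPM (folds 0.16 and 0.10). The Notch1 start site peak itself differed little, at 1.41 and 1.19, as did that of Notch2, at 1.69 and 1.31. A Notch1 peak 5.4 kb into the gene went the other way, 3.15 and 3.24. In cMoP-like nuclei 3 of the 150 member peaks were more open, 2 at Notch2 and 1 at Notch1. That is near the 2.03% of all peaks, so the count says nothing particular about these loci.

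Genes of the Notch and TCF/LEF pathways were described from lists. Of 13 genes of Notch processing and sugar transfer with enough UMIs, Lfng, the sugar transferase that tunes the response of Notch to its ligands, was higher in NK/T-like nuclei (42.4 and 45.2 CPM, folds 5.79 and 6.65), and Pofut1 and Rfng were lower. That is 1 of 13 higher and 2 of 13 lower, near the 4.99% and 15.4% of all genes, so the counts say nothing particular about this list. In the Notch nuclear complex 1 of 6 was higher (beside 4.99%), the coactivator Maml2 (297 and 181 CPM, folds 2.45 and 5.03), whereas Rbpj itself was at 1.03 and 1.52. Of 2 Notch target genes with enough UMIs none was called, Hes1 with folds of 2.26 and 0.30 and Myc with 0.86 and 1.27. Of 9 TCF/LEF partners and Wnt targets 0 were higher (beside 4.99%) and 2 lower (Tcf7l1 and Lgr5, beside 15.4%), and Jag2, the only ligand with enough UMIs, was lower. Jag2, Rfng, Tcf7l1 and Lgr5 had 0 UMIs in NK/T-like nuclei, which allows up to 21.2 and 27.1 CPM, above their levels elsewhere, so that these lower calls are below what the depth can show.

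Among 13 other regulators of T, NK and innate lymphoid cells 5 were higher, led by Id2, the inhibitor of E proteins that innate lymphoid cells need (134 and 118 CPM, folds 17.6 and 18.1). The others were Stat4 (7.89 and 12.6), Ets1 (7.87 and 11.1), Ikzf2 (4.51 and 3.22) and Runx3 (3.91 and 3.03), beside 4.99% of all genes. Gfi1 was called lower with 0 UMIs. Of 7 lymphoid cytokine receptors Il7r (3.78 and 3.60, on 20 and 5 UMIs) and Il4ra (3.33 and 2.29, on only 4 and 2 UMIs) were higher, beside 4.99%. Flt3 (0.17 and 0.43) and Il1rl1, with 0 UMIs, were called lower, beside 15.4%. As the limit of 21.2 and 27.1 CPM exceeds the levels of Gfi1 and Il1rl1 elsewhere, these 2 lower calls are also below what the depth can show. The median log2 fold of the 13 regulators was 1.22, beside −0.29 over all 10614 genes, and those of the Notch processing and TCF/LEF partner lists were 0.16 and 0.19.

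In LMPP-like nuclei, where Notch1 was highest, 2.64% of all genes were higher. Of the listed genes with enough UMIs the higher ones were 1 of 13 in Notch processing and sugar transfer, the sugar transferase Mfng (folds 2.51 and 2.96), and 1 of 6 in the nuclear complex, the coactivator Maml3 (3.92 and 4.31). The ligand Jag2, the only one tested, was higher on 7 and 4 UMIs (3.30 and 2.96), and 1 of 2 Notch targets, Hes1, on 9 and 5 UMIs (2.73 and 3.10). Among the other lists 1 of 9 TCF/LEF partners and Wnt targets was higher (Tcf7l2), 1 of 13 regulators (Satb1) and 2 of 7 cytokine receptors (Il7r and Flt3). Satb1 and Flt3 are on the marker list that named the LMPP-like class, so their calls there follow from the naming. In pro-B-like nuclei, where Lef1 was highest, 4 of 9 TCF/LEF partners and Wnt targets were higher, namely Tcf7l1 (5.27 and 3.08), Tcf7l2 (5.18 and 4.91), Tle3 (2.20 and 2.0) and Lgr5 (7.13 and 4.0), beside 4.08% of all genes. Also higher were 1 of 6 in the Notch nuclear complex (Maml2, 3.23 and 4.57) and 1 of 2 Notch targets (Hes1, 3.98 and 5.55). Of the 13 other regulators 5 were higher, the same count as in NK/T-like nuclei, namely Foxo1 (10.6 and 11.1), Maf (7.98 and 9.86), Ets1 (6.42 and 8.32), Bach2 (5.5 and 8.56) and Tcf3 (2.98 and 2.76), and Ikzf2 was lower (0.18 and 0.36), beside 4.79%. Ets1 was the one regulator higher in both classes. Of 7 cytokine receptors Il7r was higher (6.84 and 12.0).

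Genes most alike to a member across the 15 populations were taken by the lower of the Pearson coefficients of the 2 libraries, among 6907 genes, for the 5 members with at least 100 UMIs. Notch1 was closest to H2afy (0.71), Emb and Map3k3, and Notch2 to Slc8a1 (0.79), Wdfy3 and Dnajb14. Lef1 was closest to Cyth1 (0.75), Vpreb3 and Lrmp, Tox to Cracr2a (0.79), Clnk and Cd27, and Rora to Ppp1r12a (0.71), Fyb and Tox (0.68). These coefficients are descriptions, since populations of a library share its depth and free RNA.

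Between the libraries, the level of the median gene over all nuclei had a ratio of library 2 to library 1 of 0.646. The ratios of the 10 members were all below 1, but that of Tbx21, 0.762 (0.330 to 1.75) from 14 and 13 UMIs, had an interval that includes 1. Beside the median gene most members did not stand out. The intervals of Notch1, Tcf7, Gata3, Rora, Tbx21 and Eomes include 0.646, and those of Notch2, Lef1, Bcl11b and Tox lie below it. Lef1 stood apart with a ratio of 0.168 (0.145 to 0.193), lower than that of all but 0.0471% of genes, and Tox had 0.366 (0.300 to 0.444). Pro-B-like nuclei, which hold most Lef1, made up 18.0% of library 1 and 6.74% of library 2, and their Lef1 level was 584 and 256 CPM. Accessibility changed less, with locus ratios of library 2 to library 1 from 0.804 for Lef1 to 1.11 for Tbx21. Which library is Ctrl and which is Lig was not assigned, so these differences are given for the libraries alone.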

How the data were processed

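The authors aligned reads to GRCm38 (mm10) with Cell Ranger ARC 2.0.0 and deposited its counts without normalization, UMIs for genes and ATAC counts for peaks. They went on with Seurat 4.0.3 and Signac 1.3.0. The members and gene lists were chosen with earlier results of these data known. Barcodes with at least 200 genes and 1000 to 50000 peak counts were kept, 13619 of 18961. Nuclei were clustered with Seurat 5.3.0 (R 4.3.3) on 30 RNA components and LSI components 2 to 30, weighted by nearest neighbours after correction between libraries, at resolution 0.8, and named from marker lists. Scrublet (scanpy 1.11.5) called 4 doublets, 0.0294%, so it had not worked and doublets remain. UMIs and peak counts were summed by class and library and divided by all counts of the same nuclei. Intervals are exact (Poisson, Clopper-Pearson, 95%) and cover counting error only. As 82.5% of nonzero peak entries were even, ATAC intervals used pairs of counts. With 1 library for each suffix no test was run. The named genes were all 10 members, the 3 genes most like each of those with at least 100 UMIs, listed genes past 2-fold in NK/T-like nuclei or used as examples, and at each locus the 2 peaks with the highest lower fold and the promoter peak. Motifs were searched in the central 300 bases of each peak. The sources used here do not say whether counting used strand.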

Additional observations from a re-analysis of the deposited data

How the results depend on the processing

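No paired analysis was possible because each value comes from 1 library for each suffix and no test was run. The counts of members with their highest RNA (7) or most open locus (6) in NK/T-like nuclei stayed at 7 and 6 with a clustering on all genes and peaks, no correction between libraries, resolution 0.4, or without the top 8% of doublet scores, and the latter was 5 with peaks within 10 kb. As the doublet scores come from a tool that had not worked, the setting without the top 8% cannot show that doublets play no part. Requiring 500 genes per nucleus left 51 and 17 NK/T-like nuclei, too few for those counts, moved the NK/T-like share to 1.22% and 0.855%, cut the peaks more open in NK/T-like nuclei from 24 to 6, and turned the log2 fold of Lef1 in library 2 from 1.23 to −4.23, where the few nuclei left held no Lef1 UMI. It also took Rora RNA in library 2 from 3.31 to 1.13, Notch2 RNA from −2.29 to −5.70 (no UMI left, so this value, like that of Lef1, is set by the added 1 CPM), the Tox locus from 1.45 to 0.15 and the Lef1 locus from 1.09 to 0.11, and left 2 members called higher in place of 3. Under the same filter the log2 ratio of the Bcl11b locus in library 1 went from 1.83 to 1.28. In library 2 that of the Tcf7 locus went from 1.72 to 1.42 and that of the Gata3 locus from 0.93 to 0.49. The peak count was 15 with peaks within 10 kb, which are fewer, and 13 with at least 500 counts per peak. Peak counts under these settings and with 500 genes per nucleus are given without the share of all peaks. Without a minimum of UMIs the RNA count was 7 in place of 3. Over all alternatives, 125 of 140 RNA folds and 122 of 140 locus folds stayed within their counting intervals, with 14 and 18 outside and 1 RNA fold reversed. Adding 10 CPM moved 12 of 20 RNA folds, and windows of 10 kb moved 9 of 20 locus folds. Of 20 thinned shares 10 moved. The cause was not tested. Depth limits Tbx21, Eomes and all members in library 2, where an NK/T-like UMI is worth 9.05 CPM.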
